A study of Homo sapiens with 6 samples.

Results

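The nuclear encoded subunits of respiratory complex I were measured in HaCaT, a line of immortalized keratinocytes of human origin. Members were all genes of the deposited table whose symbol was NDUFA, NDUFAB, NDUFB, NDUFC, NDUFS or NDUFV followed by a number, which gave 38 of 20035 genes. Poly(A)-selected RNA was sequenced in 3 libraries labelled palmatine and 3 labelled control. The palmatine libraries came from HaCaT cells with WT as their genotype label and palmatine, a plant alkaloid, as their treatment. The control libraries came from HaCaT cells with the same genotype label and none as their treatment. The study's design text describes an IL-17 model of psoriasis-like inflammation, but the labels do not say whether control or palmatine cells received IL-17. If only the palmatine cells did, an effect of palmatine cannot be told apart from an effect of IL-17. Dose and time are not given in the labels used here. Nothing in the labels says that replicates were separate cultures, so every p-value below measures the spread between these libraries, which may be technical.

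Complex I, the NADH:ubiquinone oxidoreductase, passes electrons from NADH to ubiquinone in the inner mitochondrial membrane and pumps protons. Its peripheral arm holds an N module, which oxidizes NADH, and a Q module, which reduces ubiquinone, and its membrane arm has proximal and distal pumping parts. A small set of core subunits does the catalysis, part of it encoded in the mitochondrial genome, while supernumerary subunits, all nuclear encoded, surround the core and are needed for assembly and stability.

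The libraries held 12908646 to 17218171 gene counts. All 10 keratinocyte markers passed the filter on low counts, with a summed level of 8963 to 9623 CPM (counts scaled to a common library total by the trimmed mean of M values, TMM) in palmatine libraries and 9135 to 9306 CPM in control libraries. The summed levels of melanocyte, fibroblast, immune and endothelial markers were at most 8.22 CPM each, and TYR, DCT, COL1A2 and CD68 had no counts. The first principal component of all tested genes took up 51.0% of the variance, with both groups on either side of 0. Palmatine 1 (-19.9), palmatine 3 (-13.4) and control 1 (-5.8) lay on its negative side, and palmatine 2 (4.55), control 2 (10.6) and control 3 (24.0) on its positive side.

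All 38 members passed the filter, and 35 of them had a lower fitted level in palmatine libraries, by small amounts. No member passed an adjusted p of 0.05 in edgeR's quasi-likelihood test, and none passed in DESeq2 or limma-voom. Across the 12356 genes tested, 5 passed in edgeR, which is 0.0405%. At an unadjusted p under 0.05, edgeR put 8 members lower and 0 higher, where 4.69% of all tested genes were lower and 5.13% higher. DESeq2 put 12 members lower and 0 higher at that level, where 3.98% of all tested genes were lower and 4.24% higher. Limma-voom put 11 members lower and 1 higher, where 4.99% of all tested genes were lower and 5.34% higher. The members below this unadjusted level in edgeR were NDUFC1, NDUFB7, NDUFS5, NDUFAB1, NDUFB6, NDUFA12, NDUFA4 and NDUFB11. All 3 palmatine values lay below all 3 control values for 2 members, NDUFC1 and NDUFV3, where 5.71% of all tested genes did so. The reverse order was found for 0 members, where 6.68% of all tested genes had it.

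The median log2 fold change of palmatine over control was -0.23 over the members, with a range of -0.41 to 0.72, and 0.00 over all tested genes. A negative sign was found for 92.1% of members and for 50.4% of all tested genes. The size of this lean and the number of members under an unadjusted p of 0.05 changed with single libraries, and so did the share of all tested genes lower at that level. Without palmatine 1 the members' median was -0.12, with 1 member lower, where 1.04% of all tested genes were. Without palmatine 2 it was -0.35, with 22 members lower, where 13.5% of all tested genes were. Without palmatine 3 it was -0.23, with 2 members lower, where 1.32% of all tested genes were. These 3 fits kept all control libraries. Without control 1 the median was -0.29, with 19 members lower, where 10.2% of all tested genes were. Without control 2 it was -0.22, with 2 members lower, where 2.06% of all tested genes were. Without control 3 it was -0.16, with 1 member lower, where 1.33% of all tested genes were. Palmatine 2 and control 1 are the libraries that lay on the other group's side of the first principal component. A fit without both, chosen from that component after seeing the data, called 24 of 38 members, all lower, and 3228 of 12411 genes (26.0%). As the libraries were picked from the same expression values, these calls are a description and support nothing. The median kept its negative sign with other scalings, at -0.23 with DESeq2's size factors and -0.17 with library totals alone. In bulk RNA, fewer cells of a type and less RNA per cell cannot be told apart.

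The members varied together from library to library, and the groups overlapped. Centred on each gene's mean over the 6 libraries, the members' median log2 CPM was -0.33, 0.09 and -0.10 in palmatine 1, 2 and 3, against -0.03, 0.13 and 0.25 in control 1, 2 and 3. Palmatine 2 thus lay above control 1, while each palmatine library lay below the control library of the same number. The labels do not say whether libraries of the same number were paired. These medians averaged -0.11 ± 0.21 in palmatine and 0.11 ± 0.14 in control libraries (SD, n = 3 each). Palmatine 1 was the lowest of the 6 libraries for 30 members, and control 3 was the highest for 25. Palmatine 2 exceeded control 1 for 31 members. The summed level of the 38 members was 2042, 2584 and 2264 CPM in palmatine 1, 2 and 3, against 2401, 2700 and 2885 CPM in control 1, 2 and 3. In each of the 4 modules, palmatine 1 had the lowest library median and palmatine 2 lay above control 1.

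**Figure D1:**
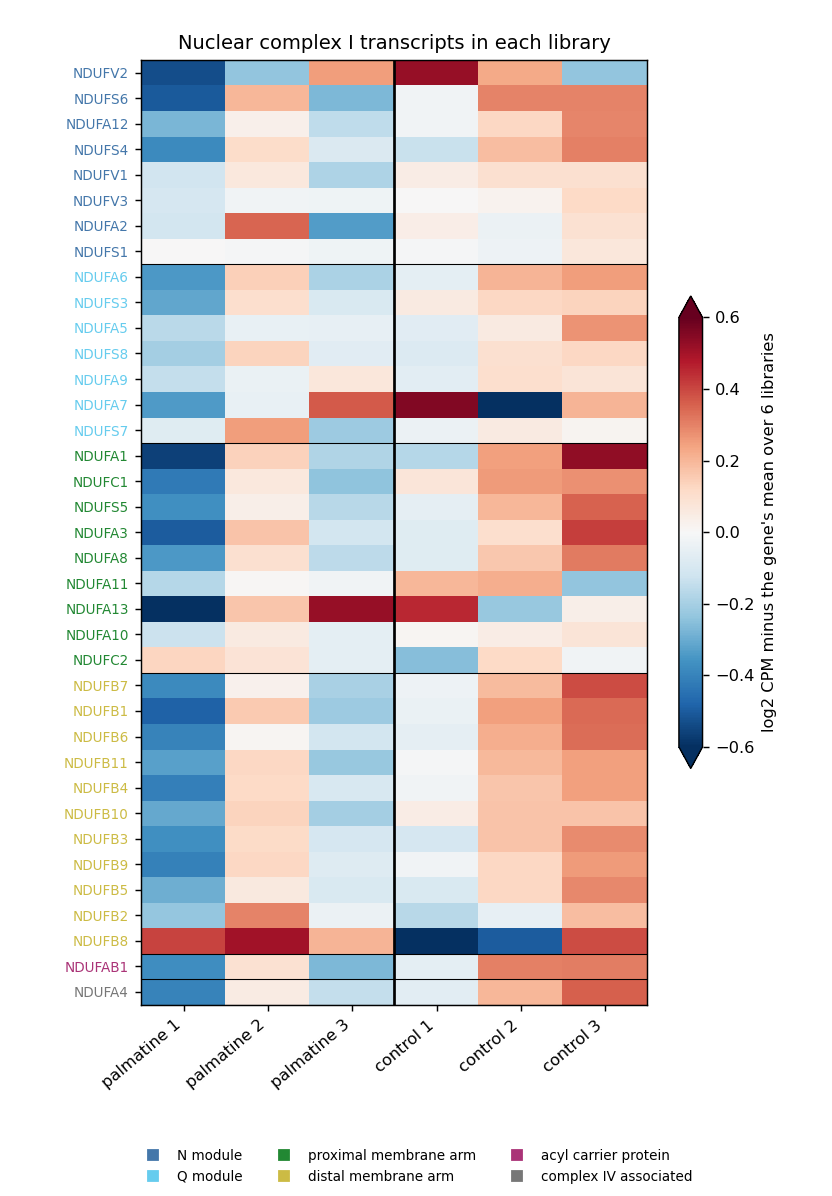
Heat map of log2 CPM minus each gene's mean over the 6 libraries, with 37 members in rows, grouped by module and coloured by it, and the 3 palmatine libraries left of the 3 control libraries. Palmatine 1 was the lowest library for 29 of the members shown and control 3 the highest for 25, while palmatine 2 exceeded control 1 for 30.

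Promoters of the members were read from RefSeq (GRCh38.p14), from 250 bases before to 50 bases after each annotated start. Of the 38 members, 32 had an entry, with 39 windows in all. Both strands were searched for words of factors known to act on respiratory genes, and matches of different words did not overlap in any member window. The NRF1 word GCATGCGC was present in 15.4% of member windows and 3.05% of all 35116 windows, and the YY1 word AAGATGGCG in 15.4% and 1.75%. The ERR word AAGGTCA was present in 12.8% of member windows and 3.92% of all windows, and the ETS word CCGGAAG in 12.8% and 10.3%. Overlapping windows of NDUFA5 held the same ERR match, so the 5 member windows with that word came from 4 members. Those NDUFA5 windows (chr7:123601562-123601861 and chr7:123601602-123601901) lie outside the NDUFA5 locus of the deposited table (chr7:123536997-123557904, minus strand). A match is a description of these letters and not a binding site. The median log2 fold change of members with the NRF1 word was -0.25, against -0.22 for members without it. For the YY1 word it was -0.07 with and -0.25 without, but NDUFA7, NDUFB8 and NDUFS7, 3 of the 6 members with it, were under 5 CPM. For the ETS word it was -0.20 with and -0.24 without, and for the ERR word -0.21 with and -0.23 without. Low members were also among these, with NDUFS7 among those with the NRF1 and ERR words. NDUFA13, which had the ETS word, was under 5 CPM as well.
Shown with matches in capitals are NDUFS6 (chr5:1801157-1801456, plus strand), which has the NRF1 word 46 bases before and the ERR word 24 bases after the start, both read on the opposite strand; NDUFA6 (chr22:42090723-42091022, minus strand), which has the NRF1 word 166 bases before and the YY1 word 25 bases after the start; and, for contrast, NDUFC1 (chr4:139302502-139302801, minus strand), the member with the smallest p, of whose 4 windows none held any of the 4 words.
NDUFS6: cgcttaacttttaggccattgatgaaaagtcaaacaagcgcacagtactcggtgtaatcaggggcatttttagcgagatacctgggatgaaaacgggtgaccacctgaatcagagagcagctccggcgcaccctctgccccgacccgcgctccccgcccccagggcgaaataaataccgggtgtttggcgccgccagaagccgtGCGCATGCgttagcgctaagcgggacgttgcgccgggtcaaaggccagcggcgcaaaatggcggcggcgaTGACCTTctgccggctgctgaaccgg
NDUFA6: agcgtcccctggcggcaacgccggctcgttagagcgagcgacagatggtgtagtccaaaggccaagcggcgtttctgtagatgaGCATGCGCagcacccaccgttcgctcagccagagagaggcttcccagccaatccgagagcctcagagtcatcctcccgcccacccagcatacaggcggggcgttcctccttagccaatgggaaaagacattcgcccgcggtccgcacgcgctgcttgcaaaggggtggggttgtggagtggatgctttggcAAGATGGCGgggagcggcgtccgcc
NDUFC1: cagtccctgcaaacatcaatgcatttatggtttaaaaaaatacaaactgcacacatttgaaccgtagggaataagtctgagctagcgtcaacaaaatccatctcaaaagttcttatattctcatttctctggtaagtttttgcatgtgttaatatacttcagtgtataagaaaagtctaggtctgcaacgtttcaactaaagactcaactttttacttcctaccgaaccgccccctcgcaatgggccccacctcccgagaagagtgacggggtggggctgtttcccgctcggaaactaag

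The N module lay at the tip of the peripheral arm and had a median log2 fold change of -0.20. All 8 members were negative, with 1 of them under an unadjusted p of 0.05 in edgeR and 0 called. Of all tested genes, 50.4% were negative, 4.69% were lower at that unadjusted level and 0.0405% were called. NDUFS1, the largest core subunit and carrier of several iron-sulfur clusters, had 180.1, 179.2 and 177.0 CPM in palmatine libraries, against 179.4, 176.1 and 188.4 CPM in control libraries. Its values overlapped between the groups and were nearly level. The log2 fold change of NDUFS1 was -0.02 (SE 0.06), with a 95% interval of -0.16 to 0.12 and an adjusted p of 0.892 in edgeR. NDUFV1, which binds NADH and the flavin cofactor, had 177, 201 and 169 CPM in palmatine libraries, against 198, 205 and 205 CPM in control libraries. Palmatine 2 lay within the control range, and the NDUFV1 log2 fold change was -0.15 (SE 0.08; edgeR adjusted p = 0.455). NDUFV2, another iron-sulfur subunit, was near the floor of detection, with 0.560, 0.718 and 1.06 CPM in palmatine libraries, against 1.31, 1.04 and 0.719 CPM in control libraries. Its log2 fold change of -0.41 was the most negative of all members, but it rested on 9 to 17 counts per library and the 95% interval ran from -1.19 to 0.38 (edgeR adjusted p = 0.586). The accessory NDUFV3 averaged 29.5 ± 0.89 CPM in palmatine and 31.5 ± 1.41 CPM in control libraries (SD, n = 3 each), with a log2 fold change of -0.10. Its groups did not overlap, with palmatine lower, an order found for 5.71% of all tested genes. Among the late-joining accessory subunits, the log2 fold change was -0.37 for NDUFS6, -0.27 for NDUFA12 and -0.24 for NDUFS4. NDUFA2, also accessory, had -0.04.

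The Q module, where ubiquinone is bound and reduced, had the median closest to 0 of the 4 modules, at -0.09. All 8 members were negative, with 0 called and 0 under an unadjusted p of 0.05 in edgeR. Among all tested genes, 50.4% were negative, 0.0405% were called and 4.69% were lower at that unadjusted level. NDUFS3, a core subunit of this module, had 77.1, 103 and 89.9 CPM in palmatine libraries, against 99.5, 104 and 105 CPM in control libraries. The control values were close together, palmatine 1 was lowest and palmatine 2 lay above control 1. The NDUFS3 log2 fold change was -0.20 (SE 0.10, edgeR adjusted p = 0.455). NDUFS3 overlaps a coding gene on the same strand, PTPMT1. NDUFS8, a core iron-sulfur subunit, had 56.2, 71.2 and 61.7 CPM in palmatine libraries, against 61.3, 69.2 and 70.6 CPM in control libraries. Here palmatine 2 was the highest library of all, and the log2 fold change was -0.09 (SE 0.10; edgeR adjusted p = 0.674). NDUFS7, which carries the last iron-sulfur cluster before ubiquinone, had only 1.12, 1.44 and 0.999 CPM in palmatine libraries, against 1.16, 1.24 and 1.20 CPM in control libraries. It was the lowest member per length and its log2 fold change was -0.02, with a 95% interval of -0.58 to 0.54. The accessory members had log2 fold changes of -0.26 for NDUFA6, -0.18 for NDUFA5, -0.08 for NDUFA9 and -0.06 for NDUFA7.

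The proximal membrane arm had a median log2 fold change of -0.27. In edgeR 8 of 9 members were negative, with 2 of them under an unadjusted p of 0.05 and 0 called. The shares of all tested genes were 50.4% negative, 4.69% lower at that unadjusted level and 0.0405% called. NDUFC1, a small membrane subunit, had the smallest p of all members. It had 16.0, 22.4 and 18.2 CPM in palmatine libraries, against 22.6, 25.7 and 26.1 CPM in control libraries. The groups did not overlap, with palmatine lower, an order found for 5.71% of all tested genes, but palmatine 2 and control 1 were almost level. The NDUFC1 log2 fold change was -0.40 (SE 0.13), with an unadjusted p of 0.0114 and an adjusted p of 0.455 in edgeR. NDUFC1 lies at chr4:139266880-139302551 on the minus strand and overlaps MGARP, a coding gene on the same strand in GENCODE, and the sources used here do not say how the authors' counting treated shared bases. NDUFS5, which sits on the intermembrane space side, had 69.1, 91.5 and 79.6 CPM in palmatine libraries, against 85.9, 102.5 and 114 CPM in control libraries. Palmatine 2 lay above control 1, and the NDUFS5 log2 fold change was -0.33 (SE 0.12; unadjusted p = 0.024, adjusted p = 0.455 in edgeR). NDUFA1, a small X-linked subunit needed for assembly, had 62.8, 102 and 81.8 CPM in palmatine libraries, against 82.4, 109.9 and 134 CPM in control libraries. Both groups spread widely and overlapped, and its log2 fold change of -0.40 had a 95% interval of -0.84 to 0.04. NDUFC2, the partner of NDUFC1 in the membrane, was among the 3 members with a positive sign. It had 7.28, 7.05 and 6.37 CPM in palmatine libraries, against 5.54, 7.22 and 6.55 CPM in control libraries. The groups overlapped and the NDUFC2 log2 fold change was 0.10 (SE 0.13, edgeR adjusted p = 0.751). NDUFC2 also overlaps a coding gene on the same strand, the readthrough gene NDUFC2-KCTD14. The rest of the arm had log2 fold changes of -0.29 for NDUFA3, -0.27 for NDUFA8, -0.15 for NDUFA11, -0.09 for NDUFA13 and -0.09 for NDUFA10.

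The distal membrane arm had a median log2 fold change of -0.25. In edgeR 9 of 11 members were negative, with 3 of them under an unadjusted p of 0.05 and 0 called. For all tested genes the shares were 50.4% negative, 4.69% lower at that unadjusted level and 0.0405% called. NDUFB7, an intermembrane space subunit, had 24.9, 33.1 and 28.3 CPM in palmatine libraries, against 31.7, 37.0 and 42.6 CPM in control libraries. The groups overlapped only through palmatine 2 and control 1, with a log2 fold change of -0.37 (SE 0.13; unadjusted p = 0.0195, adjusted p = 0.455 in edgeR). NDUFB6, a membrane-spanning subunit, had 28.9, 38.6 and 35.5 CPM in palmatine libraries, against 36.8, 44.5 and 48.3 CPM in control libraries. Its overlap rested on the same pair of libraries, and its log2 fold change was -0.33 (SE 0.13; unadjusted p = 0.0281, adjusted p = 0.455 in edgeR). NDUFB8 went the other way, with 1.46, 1.57 and 1.25 CPM in palmatine libraries, against 0.462, 0.716 and 1.44 CPM in control libraries. Control 3 lay within the palmatine range. The NDUFB8 log2 fold change of 0.72 was the largest of any member in size but rested on 6 to 26 counts per library, and its 95% interval ran from -0.08 to 1.53 (edgeR adjusted p = 0.455). NDUFB8 also overlaps a coding gene on the same strand, AL133352.1. NDUFB2 had 10.4, 15.1 and 12.0 CPM in palmatine libraries, against 10.9, 11.8 and 14.0 CPM in control libraries, so the control values lay within the palmatine range. Its log2 fold change was 0.03 (SE 0.15, edgeR adjusted p = 0.943). Like NDUFB8, NDUFB2 overlaps a coding gene on the same strand, ADCK2. The other distal members had log2 fold changes of -0.35 for NDUFB1, -0.28 for NDUFB11, -0.25 for NDUFB4 and -0.25 for NDUFB10. Those of NDUFB3, NDUFB9 and NDUFB5 were -0.23, -0.23 and -0.22.

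NDUFAB1 and NDUFA4 stand apart from the modules. NDUFAB1, the mitochondrial acyl carrier protein, is a subunit of complex I and also serves lipoic acid and iron-sulfur cluster synthesis. It had 42.4, 58.6 and 45.6 CPM in palmatine libraries, against 52.8, 67.8 and 68.1 CPM in control libraries. Palmatine 2 exceeded control 1, and the NDUFAB1 log2 fold change was -0.37 (SE 0.14; unadjusted p = 0.0249, adjusted p = 0.455 in edgeR). NDUFA4, named with complex I but now placed in complex IV, averaged 215 ± 33.0 CPM in palmatine and 269 ± 39.0 CPM in control libraries (SD, n = 3 each). The NDUFA4 log2 fold change was -0.33 (edgeR adjusted p = 0.455), and without it the members' median was -0.23. The 7 nuclear core subunits had a median of -0.09 and the 31 other members one of -0.25. The difference between these medians, and those between modules, were not tested. With a trend on gene length removed, as described below, the core and other medians were -0.16 and -0.14.

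**Figure D2:**
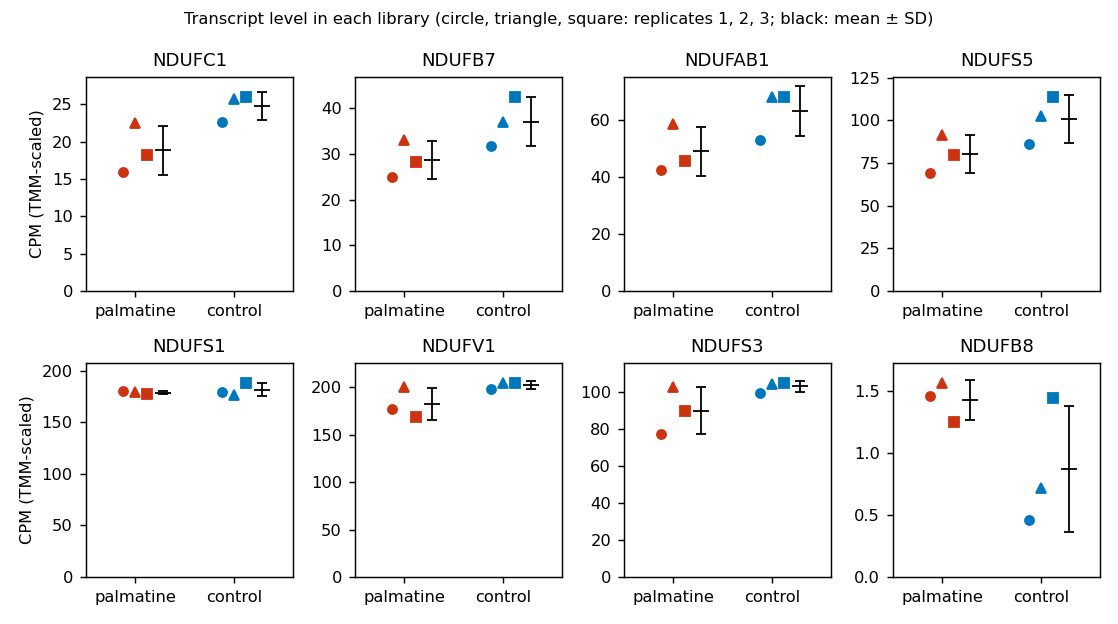
CPM in each library for 8 members, palmatine in red left of control in blue, with circles, triangles and squares for replicates 1, 2 and 3 and black bars for mean ± SD. NDUFC1 separated the groups by a small gap, while NDUFB7, NDUFAB1 and NDUFS5 overlapped through palmatine 2 and control 1, NDUFS1 was nearly level and NDUFB8 was at or under 1.57 CPM throughout.

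**Figure D3:**
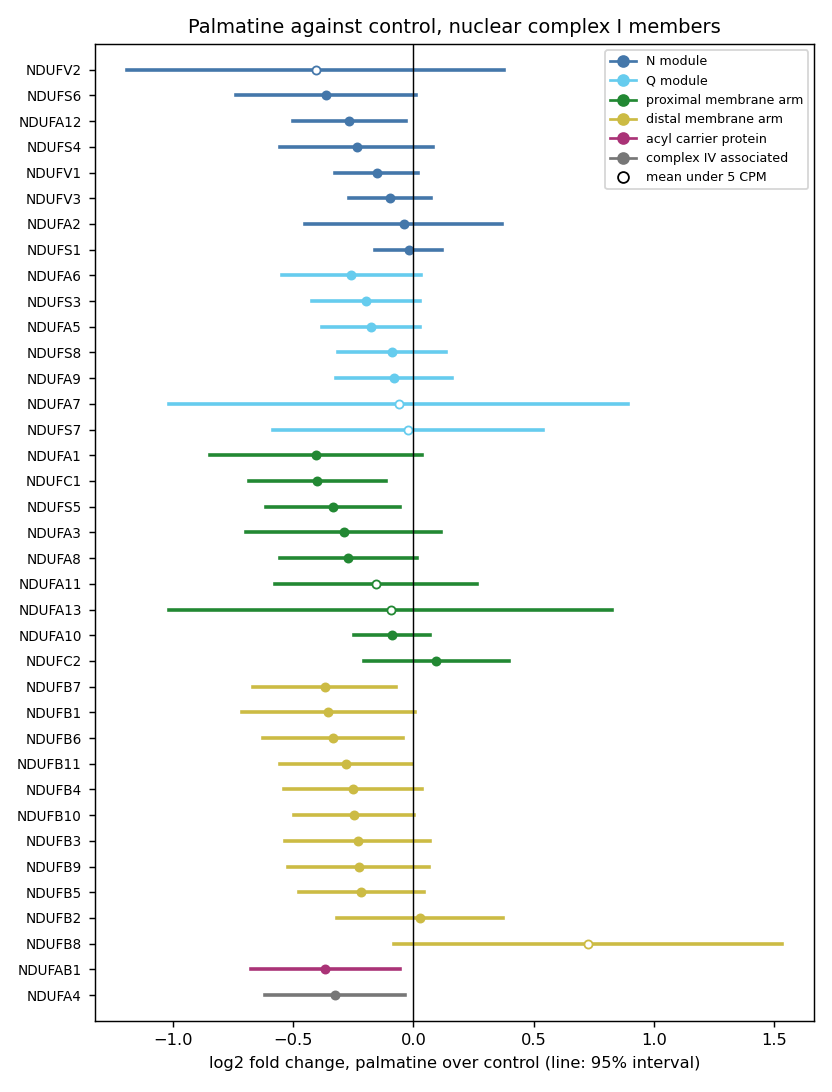
Log2 fold change of palmatine over control with its 95% interval for 37 members, grouped by module, with open circles for the 6 members under a mean of 5 CPM. Points lay to the left of 0 for 34 members, and the 4 intervals that reached past 2-fold belonged to members with open circles.

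Precision varied between members. The 95% interval of the fold change lay within 2-fold in both directions for 34 of 38 members and within 1.5-fold for 24. The members outside 2-fold were NDUFV2, NDUFA7, NDUFA13 and NDUFB8, all under 5 CPM. Level was not all of it, since NDUFA1, at a mean of 95.5 CPM, had an SE of 0.20. NDUFS7 and NDUFA11, also under 5 CPM, lay within 1.5-fold, but only just at their lower ends. Their log2 intervals were -0.582 to 0.537 and -0.573 to 0.265. For the 32 members at 5 CPM or more, a selection made after seeing the data, the median log2 fold change was -0.24 and 30 were negative.

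Members were short genes, and fold changes in these libraries ran with gene length. The members' median length in the deposited table was 2710 bases, against 5480 bases for all tested genes. Across genes, Spearman's correlation between log2 fold change and length was 0.49 over the 38 members and 0.44 over all 12356 tested genes, which share the same 6 libraries. The 28 members shorter than the median tested gene had a median log2 fold change of -0.25, against -0.07 for all shorter genes. The 10 members at or above it had -0.09, against 0.06 for all genes of that size. With the length trend of each library removed, the members' median was -0.15, with 33 negative, against -0.02 for all tested genes. No member was called in that edgeR fit either. At an unadjusted p under 0.05, 8 members were lower and 1, NDUFB8, was higher, where 6.00% of all tested genes were lower and 4.64% higher. These 8 were not the same members as without the removal. NDUFB7, NDUFS5 and NDUFB6 left this level, with log2 fold changes of -0.08, -0.05 and -0.17 on this scale. NDUFA5, NDUFV1 and NDUFB1 entered it. On that scale the library medians were -0.20, 0.06 and -0.07 in palmatine 1, 2 and 3, against -0.05, 0.10 and 0.16 in control 1, 2 and 3, so palmatine 2 again exceeded control 1. Spearman's correlation with length was then -0.51 over the members, against 0.03 over all 12356 tested genes. The removal thus left all tested genes nearly flat but reversed the sign among the members. NDUFS1, at 12174 bases, had a log2 fold change of -0.13 on this scale, and NDUFA1, at 421 bases, had -0.09. The module medians became -0.15 for the N module, -0.13 for the Q module, -0.09 for the proximal and -0.13 for the distal membrane arm. For the 7 nuclear core subunits the median became -0.16, and for the 31 other members -0.14. Median lengths of these sets were 5057 and 2263 bases. The length column may include long minor isoforms, and how the trend arose was not tested.

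**Figure D4:**
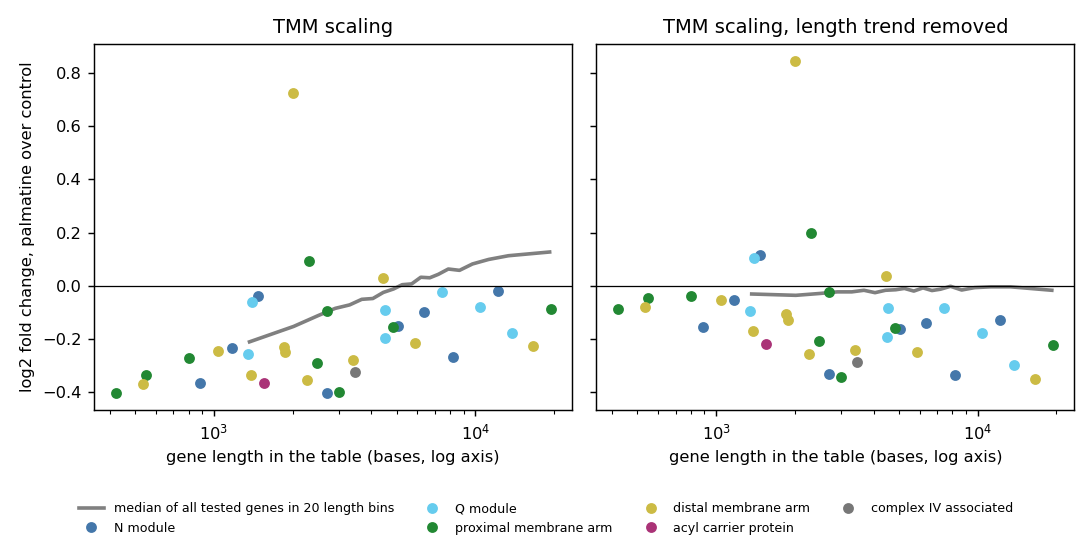
Log2 fold change of palmatine over control against gene length (log axis) for 37 members, coloured by module, with the median of all tested genes in length bins as a grey line, before (left) and after (right) removal of the length trend. The grey line rises with length on the left and is flat on the right, and 34 members on the left and 32 on the right lie below 0.

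Levels per length differed far more between members than between groups. Mean FPKM, counts scaled by gene length and library total, was highest for NDUFA1, at 199 ± 45.4 in palmatine and 252 ± 58.0 in control libraries (SD, n = 3 each). NDUFS5 had 149 ± 19.1 FPKM in palmatine and 179.7 ± 23.8 FPKM in control libraries, and NDUFA8 had 113 ± 16.2 FPKM in palmatine and 130.5 ± 16.3 FPKM in control libraries. These 3 neighbours in the order are small subunits of the proximal membrane arm. The lowest was NDUFS7, with 0.162 ± 0.0298 FPKM in palmatine and 0.157 ± 0.00499 FPKM in control libraries. The highest and the lowest mean FPKM over all libraries thus differed 1415-fold, although the subunits are present in the complex in like amounts, apart from NDUFAB1. In CPM, which is not scaled by length, the highest mean (NDUFA4) and the lowest (NDUFA7) differed 308-fold. FPKM also rests on the length column, with 421 bases for NDUFA1 and 7456 for NDUFS7. That column may include long minor isoforms. Means over the 6 libraries were under 5 CPM for NDUFV2, NDUFS7, NDUFA7, NDUFA13, NDUFB8 and NDUFA11, with 6 to 48 counts per library. Of the 9 members that overlap a coding gene on the same strand, 4 were under 5 CPM and the median was 6.67 CPM. Of the 29 without such an overlap, 2 were under 5 CPM, NDUFV2 and NDUFS7, and the median was 65.0 CPM. The part of overlaps, or of reads shared with other loci, in these levels was not tested, and the low values do not show that a subunit is scarce.

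**Figure D5:**
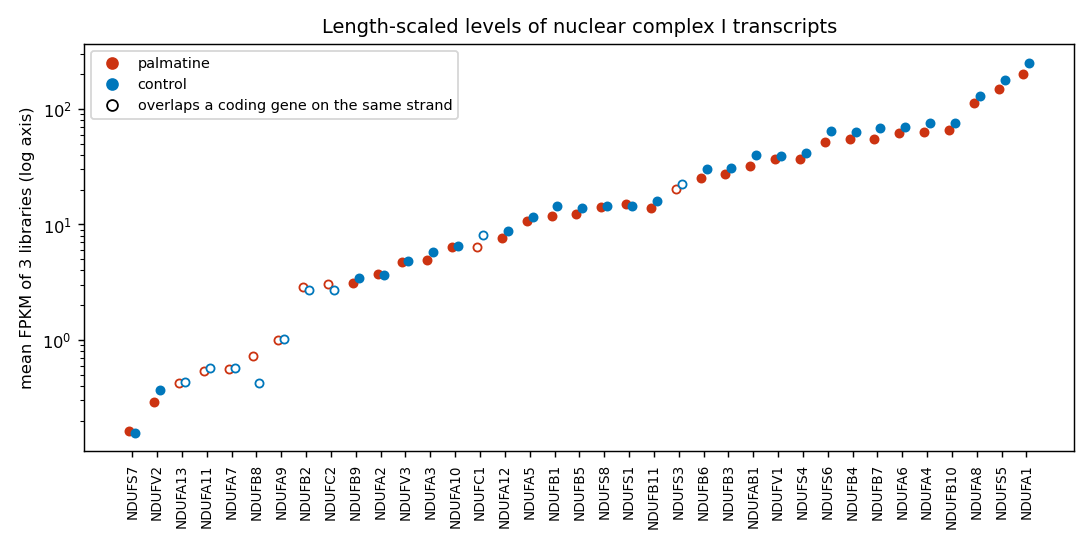
Mean FPKM (log axis) of 37 members in palmatine (red, left of each pair) and control (blue, right) libraries, ordered by level, with open circles for members that overlap a coding gene on the same strand. The order runs up to NDUFA1 from NDUFS7, a 1415-fold range, and within each member the groups lie close together.

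The rest of the complex I pathway held small differences as well, apart from the subunits encoded in mitochondria. Of 23 assembly factors, which build complex I and are not part of it, 21 were negative, with a median log2 fold change of -0.12. In edgeR 0 were called. At an unadjusted p under 0.05, where 4.69% of all tested genes were lower and 5.13% higher, 3 were lower and 0 higher. These 3 were NDUFAF4 (-0.38), TMEM126A (-0.34) and NDUFAF2 (-0.31), each with overlapping groups. ACAD9 had -0.03 and NDUFAF1 -0.02. Of 13 genes of iron-sulfur cluster supply, 12 were tested, 11 were negative and the median was -0.13, with 0 called and 1 lower at that unadjusted level. That gene, BOLA3, which helps to hand clusters to target proteins, had 1.40, 3.00 and 2.69 CPM in palmatine libraries, against 3.31, 3.97 and 4.40 CPM in control libraries. Its groups did not overlap, with palmatine lower, an order found for 5.71% of all tested genes. The BOLA3 log2 fold change was -0.74 (edgeR adjusted p = 0.455). The next smallest p-values belonged to ISCA2 (-0.24) and IBA57 (0.17). The IBA57 groups did not overlap either, but with palmatine higher, an order found for 6.68% of all tested genes.

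Of 10 transcriptional regulators of respiratory genes, 9 were tested and 5 were negative, with a median log2 fold change of -0.06 and 0 called. At an unadjusted p under 0.05 in edgeR, where 4.69% of all tested genes were lower and 5.13% higher, 1 was lower and 0 higher. That gene was ESRRA, the nuclear receptor ERR alpha, with 69.3, 84.1 and 72.4 CPM in palmatine libraries, against 80.1, 89.7 and 93.1 CPM in control libraries. Palmatine 2 lay above control 1, as for most subunits, and the ESRRA log2 fold change was -0.22 (edgeR adjusted p = 0.455). The coactivator PPARGC1A had 2.75, 2.81 and 3.43 CPM in palmatine libraries, against 2.62, 1.497 and 2.40 CPM in control libraries. Its groups did not overlap, in the opposite direction to the subunits, with palmatine higher, an order found for 6.68% of all tested genes. The PPARGC1A log2 fold change was 0.48 (SE 0.23, edgeR adjusted p = 0.455). TFAM (-0.16) and GABPB1 (-0.14) also had groups without overlap, with palmatine lower, as had 5.71% of all tested genes. Both are named after their values were seen. The related coactivator PPRC1 had 0.25 and NRF1 had -0.07.

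The 7 subunits of complex I encoded in the mitochondrial genome had a median log2 fold change of -1.21, and 4 of them, MT-ND1, MT-ND2, MT-ND5 and MT-ND6, fell in edgeR at an adjusted p under 0.05. MT-ND1 had 1574, 1484 and 1686 CPM in palmatine libraries, against 6754, 5252 and 5002 CPM in control libraries, a wide gap in which palmatine 2 and control 1 each stood with their own group. MT-ND2 had a log2 fold change of -1.54, MT-ND5 one of -1.21 and MT-ND6 one of -1.33. The MT-ND1 log2 fold change was -1.84 (SE 0.12; edgeR adjusted p = 0.000439). MT-ND4 had 6482, 5924 and 7080 CPM in palmatine libraries, against 7124, 6072 and 5919 CPM in control libraries. It overlapped between the groups, with a log2 fold change of 0.03 (SE 0.10; edgeR adjusted p = 0.913). For the nuclear members, the most negative value was -0.41, and a test of nuclear against mitochondrial subunits was not made.

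Other nuclear mitochondrial genes had values close to those of the members. The 40 tested of 43 nuclear subunits of complexes II to V had a median log2 fold change of -0.24, with 39 negative. In edgeR 0 were called. At an unadjusted p under 0.05, where 4.69% of all tested genes were lower, 7 of these subunits were lower. Their smallest p-values were those of the ATP synthase subunits ATP5MC1 (-0.28), ATP5PD (-0.32) and ATP5PB (-0.24). The 76 tested of 78 mitochondrial ribosomal proteins had a median of -0.21, with 74 negative, 0 called and 21 lower at that level, led by MRPL20 (-0.42), MRPL52 (-0.33) and MRPS18A (-0.41). By library, the medians for complexes II to V were -0.31, 0.09 and -0.15 in palmatine 1, 2 and 3, against -0.06, 0.16 and 0.27 in control 1, 2 and 3. For the mitochondrial ribosomal proteins they were -0.24, 0.06 and -0.14 in palmatine 1, 2 and 3, against -0.04, 0.13 and 0.23 in control 1, 2 and 3. Palmatine 1 was lowest and control 3 highest in both lists and palmatine 2 above control 1, as among the complex I members, and differences between the lists were not tested. Both lists held short genes, with median lengths of 2316 and 2572 bases, against 5480 bases for all tested genes. Of all genes shorter than the median tested gene, 67.0% were negative. With the length trend removed, the medians of the lists were -0.155 and -0.124, against -0.147 for the members and -0.017 for all tested genes.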

How the data were processed

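The authors deposited 1 table with raw gene counts and FPKM values for 3 palmatine and 3 control libraries of HaCaT cells. Per the submitters' processing notes, HISAT2 2.1.0 and HTSeq 0.9.1 were used to make the counts; no source used here gives the genome build, the annotation, the strand setting or the treatment of multi-mapping reads. The deposited FPKM equalled count over length and library total for 100% of the 89346 values above 0 (relative tolerance 1e-05). Of 20035 gene IDs, 19851 were found in GENCODE, each at the same locus and strand on GRCh38, including all 38 members, so coordinates are given on that build. Per the labels' protocols, RNA was selected with oligo(dT) beads.

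Genes were tested with edgeR 4.0.16 (R 4.3.3; filterByExpr with a minimum count of 10, TMM, quasi-likelihood F test, Benjamini-Hochberg over the 12356 genes tested, threshold 0.05). TMM factors ran from 0.970 to 1.04. Alternatives used DESeq2 1.42.0, limma 3.58.1, other scalings, filters and offsets (a loess trend on length or GC, span 0.3), and left out each library in turn or, chosen after seeing the data, palmatine 2 and control 1 together. The fits were tested on simulated data. A single-gene exact permutation test of 3 against 3 cannot go below p = 0.1 (two-sided), so none is given. Titles and treatment labels gave each library's group and replicate number. Per-library values were named for the 7 nuclear core subunits, NDUFC1, the 5 smallest p-values, the 3 most positive and the 3 most negative fold changes and the highest and lowest FPKM; in other lists the 3 smallest p-values and a few fixed genes were named. The members, lists and rules were chosen with earlier results of these data known. SE values and intervals come from the edgeR fit and cover the spread between libraries only. The values of 1 core subunit are not reported here or drawn in the figures; it stays in all counts, medians and sums over the members.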

Additional observations from a re-analysis of the deposited data

How the results depend on the processing

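No member was called in any of 20 alternatives, whose lowest adjusted p of a member was 0.123, but 24 members were called in a further fit, added after seeing the data, that left out palmatine 2 and control 1 together. It called 3228 of 12411 genes, and the members' median was -0.41. Those libraries were picked from the first principal component, that is, from the values the fit then tests. The fit was first dropped and then put back, both after its result was seen. Whether the libraries were exchanged was not tested; for MT-ND1 both ran with their labels. NDUFA13 (0.046), NDUFA7 (0.329), NDUFB2 (-0.198) and NDUFC2 (-0.012) changed sign in it, and NDUFS7 was -0.195.

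The number of genes called, 5, was 14 with DESeq2, 8 without a filter, 8 with the length trend removed, 8 with length and GC trends removed and 1 without the mitochondrially encoded genes. The members' median kept its negative sign throughout, at -0.14 to -0.24 over the alternatives that kept all libraries and -0.12 to -0.35 over single-library leave-outs. Leaving out single libraries gave 31 to 36 negative members, 5 to 6 genes called and 0 members called. With the replicate block in edgeR, 9 genes and 0 members were called. At an unadjusted p under 0.05, 23 members and 1235 of 12356 tested genes were lower with it, against 8 members and 579 tested genes without it. Deviations from the group means correlated at 0.40, 0.18 and -0.10 between libraries of the same number. Correlations between different numbers were not compared, so these values cannot decide whether replicates were paired.

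Of 754 member values under the 20 alternatives, 29 changed sign, in 7 members, and 31 members never changed sign. NDUFA7 was 0.016 with limma-voom, 0.002 with library totals, 0.042 with log2(FPKM + 0.1), 0.104 with the length trend removed and 0.072 with length and GC removed. NDUFA2 was 0.023 with library totals, 0.002 with log2(FPKM + 1), 0.114 with the length trend removed and 0.085 with length and GC removed. NDUFS1 was 0.044 with library totals, 0.041 with log2(FPKM + 1) and 0.043 with log2(FPKM + 0.1), and NDUFS7 was 0.041, 0.006 and 0.024 in the same 3. In these 3 settings the median of all tested genes was 0.062, 0.042 and 0.059, so the values given for these settings of NDUFA7, NDUFA2, NDUFS1 and NDUFS7 lay below it. Over single-library leave-outs, values ran from -0.468 to 0.283 for NDUFA13, from -0.250 to 0.102 for NDUFA2, from -0.433 to 0.295 for NDUFA7, from -0.171 to 0.082 for NDUFS7, from -0.128 to 0.146 for NDUFB2, from -0.001 to 0.192 for NDUFC2 and from -0.041 to 0.008 for NDUFS1. The causes were not tested. Members under 5 CPM had 6 to 48 counts per library.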

Other observations

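Genes with NDUF symbols outside the members were looked at after their values were seen. NDUFA4L2, a relative of NDUFA4 known as a hypoxia-induced gene, had 3.08, 3.07 and 3.00 CPM in palmatine libraries, against 2.69, 2.86 and 2.64 CPM in control libraries. Its groups did not overlap, with palmatine higher, an order found for 6.68% of all tested genes. The NDUFA4L2 log2 fold change was only 0.16 (SE 0.15, edgeR adjusted p = 0.676). NDUFC2-KCTD14, a readthrough gene that overlaps NDUFC2, had 0 counts in all 6 libraries.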
